A study of Mus musculus with 12 samples.

Results

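The genes described here are 9 of the ADP-ribosylation machinery: Parp9, Parp10, Parp11, Parp12, Parp14, Dtx3l and Zc3hav1, which are linked to interferon, and Parp1 and Parp2, relatives that are not. They were chosen by symbol, through the RefSeq accession that the array files give for each probe, which found 10 of 55681 probes. Dtx3l had 2 probes and each other gene had 1. All 10 probes were well above background on all 12 arrays, so that all 9 genes were among the 15445 tested and none passed through a single group. The arrays were Agilent single-colour arrays of total RNA from mouse embryonic fibroblasts (MEFs), connective tissue cells cultured from embryos. Wild-type MEFs and MEFs of genotype GADD34ΔC/ΔC, written ΔC below, were left untreated or lipofected for 6 h with 2.5 µg/ml of HMW poly(I:C), an artificial RNA duplex that mimics viral RNA. There were 4 groups of 3 arrays, numbered 1 to 3, from 3 experiments that the series' design calls independent. A control with lipid alone is not among the labelled samples, and the labels do not say how many embryos or lines stand behind each genotype, so that ΔC and line cannot be told apart.

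ADP-ribosyltransferases take ADP-ribose from NAD and attach it to proteins or nucleic acids. Parp1 and Parp2 build poly(ADP-ribose) chains at DNA breaks, while most other family members attach single units or have lost the activity. Several of the latter are induced by interferon and act against viruses: Zc3hav1 encodes ZAP, which binds viral RNA and leads it to decay, and Parp9 forms a complex with the ubiquitin ligase Dtx3l. GADD34, encoded by Ppp1r15a, is a regulatory subunit through which protein phosphatase acts on eIF2α, a factor of translation initiation.

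Values are log2 processed intensities minus the 75th percentile of their array, so that a level of 0 is the intensity of a probe at that percentile. Tests are limma's across all genes with Benjamini-Hochberg adjustment, and a gene is called at an adjusted p under 0.05. The targeted gene parted the genotypes: Ppp1r15a was well above background on 0 of 3 untreated and 1 of 3 treated ΔC arrays and on every wild-type array, and without treatment the ΔC level was at least 486.3-fold lower. Such a bound sets the dim group, on each array, at the lowest signal well above background or at the probe's own signal where that is higher. For Ppp1r15a it was read from 1 probe, and whether the ΔC change removes that probe's target was not tested. Of 11 fibroblast markers, Lum was well above background on no array and 10 were so on all untreated arrays. Their summed intensity, in units of each array's 75th percentile, was 1060 to 1220 in untreated wild-type, 858 to 1010 in treated wild-type, 391 to 725 in untreated ΔC and 389 to 717 in treated ΔC cells. Of markers of other cells, Hbb-bt of red cells and Cdh5, Tek and Emcn of endothelium were well above background on no array, and Epcam and Cdh1 of epithelium on no wild-type array and on all 6 ΔC arrays. Other markers of such cells were well above background on all 12 arrays: Itgam, Csf1r, Cd3e, Adgre1 and Ptprc of blood cells, Kdr and Pecam1 of endothelium, Krt18, Krt14 and Krt5 of epithelium, and Tubb3, Sox10 and Map2 of neural cells. Krt8 of epithelium was so on every wild-type array, but only on some arrays of each ΔC group. In untreated ΔC cells, Krt8 was called lower than in wild-type cells, and Epcam and Cdh1 were called higher. After poly(I:C), Epcam and Cdh1 were again called higher, and Krt8 was not called. The sum over 9 blood cell markers was 20.3 to 23.9, 14.4 to 16.1, 10.4 to 13.5 and 11.8 to 13.3 in the same 4 groups, that over 5 endothelial markers 15.1 to 22.1, 15.6 to 16.2, 12.4 to 15.8 and 12.4 to 17.9, that over 6 epithelial markers 0.596 to 4.93, 0.692 to 4.03, 1.81 to 3.78 and 1.5 to 3.27, and that over 4 neural markers 1.85 to 2.33, 2.18 to 2.41, 2.22 to 2.72 and 2.12 to 2.79. The part of these differences in the results was not tested. In such bulk RNA, fewer cells that respond and less RNA per cell cannot be told apart.

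The first comparison asked how the 9 genes respond to poly(I:C) in wild-type cells. The 7 interferon-linked genes rose, from 3.63-fold for Parp11 to 86-fold for Parp14, and Parp1 and Parp2 did not pass the test. Over all genes tested, 5.24% rose and 1.53% fell (809 and 237 genes, or 583 and 14 under median scaling of the arrays). The median log2 difference was 3.51 over the 7 interferon-linked genes and -0.14 over all genes. For each of the 7, the 3 treated arrays lay above the 3 untreated arrays, as for 12% of all genes.

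Parp14, a mono-ADP-ribosyltransferase with macrodomains that read ADP-ribose, had the largest difference of the 9. Its normalized level was -0.49, -0.81 and -1.97 on the untreated wild-type arrays and 5.97, 5.88 and 4.16 on the treated ones. The arrays numbered 3 were the lowest of both groups, and the groups were far apart. The log2 difference was 6.43 ± 0.56 (SE, n = 3 per group, adjusted p = 0.000102), the 35th largest in size among the 15445 genes.

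Parp9, whose product has macrodomains and little or no transferase activity by itself, read 1.12, 1.10 and 0.39 untreated and 5.28, 5.30 and 3.87 treated. Its log2 difference was 3.95 ± 0.43 (adjusted p = 0.000399), a 15.4-fold rise. Dtx3l, the gene of its ubiquitin ligase partner, read 0.39, 0.21 and -0.23 untreated and 4.35, 4.25 and 3.36 treated. It rose by 3.86 ± 0.32 (adjusted p = 7.83e-05), or 14.6-fold, so that the partners' 95% intervals of 3.00 to 4.90 and 3.15 to 4.57 overlapped over most of their length. The other probe of Dtx3l read -3.90, -4.19 and -4.86 untreated and 0.22, -0.05 and -1.61 treated, with a log2 difference of 3.84 ± 0.54. Parp14, Dtx3l and Parp9 are successive protein-coding genes on chromosome 16 in the RefSeq annotation.

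Parp10, a mono-ADP-ribosyltransferase with RNA recognition motifs, read 3.88, 3.78 and 3.15 untreated and 7.45, 7.37 and 6.02 treated. It rose by 3.34 ± 0.45 (adjusted p = 0.00158). Parp12, which combines CCCH zinc fingers with a transferase domain as ZAP does, read -0.41, -0.41 and -0.86 untreated and 3.46, 3.59 and 1.81 treated. It rose by 3.51 ± 0.46 (adjusted p = 0.0014).

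Zc3hav1, the gene for ZAP, read 0.17, 0.03 and -0.56 untreated and 2.64, 2.76 and 1.29 treated, a rise of 2.35 ± 0.47 (adjusted p = 0.0155). Parp11, a mono-ADP-ribosyltransferase of the nuclear envelope, read -3.91, -4.25 and -4.12 untreated and -1.57, -1.71 and -3.42 treated. Array 3 of the treated group lay close to the untreated arrays. Parp11 rose by 1.86 ± 0.41 (adjusted p = 0.0242). The calls on Zc3hav1 and Parp11 were lost without wild-type untreated 2 (adjusted p = 0.0506 and 0.0885), wild-type poly(I:C) 1 (0.0828 and 0.116) or wild-type poly(I:C) 2 (0.0791 and 0.118), and that on Parp11 also without wild-type untreated 1 (0.0712). A block for slide ended them as well (0.0566 and 0.0732). The call on Parp11 was also lost in a fit of the compared groups alone (0.117) and in the authors' table (0.121).

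Parp1 read 2.47, 2.60 and 2.58 untreated and 2.21, 2.30 and 2.42 treated, and its difference of -0.24 had a 95% interval of -0.53 to 0.05 (adjusted p = 0.266). Parp2 read 1.23, 1.32 and 1.26 untreated and 1.24, 1.13 and 1.37 treated, with a difference of -0.02 and an interval of -0.28 to 0.23 (adjusted p = 0.916). The intervals of these DNA damage enzymes exclude a rise as large as the smallest of the 7.

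**Figure D1:**
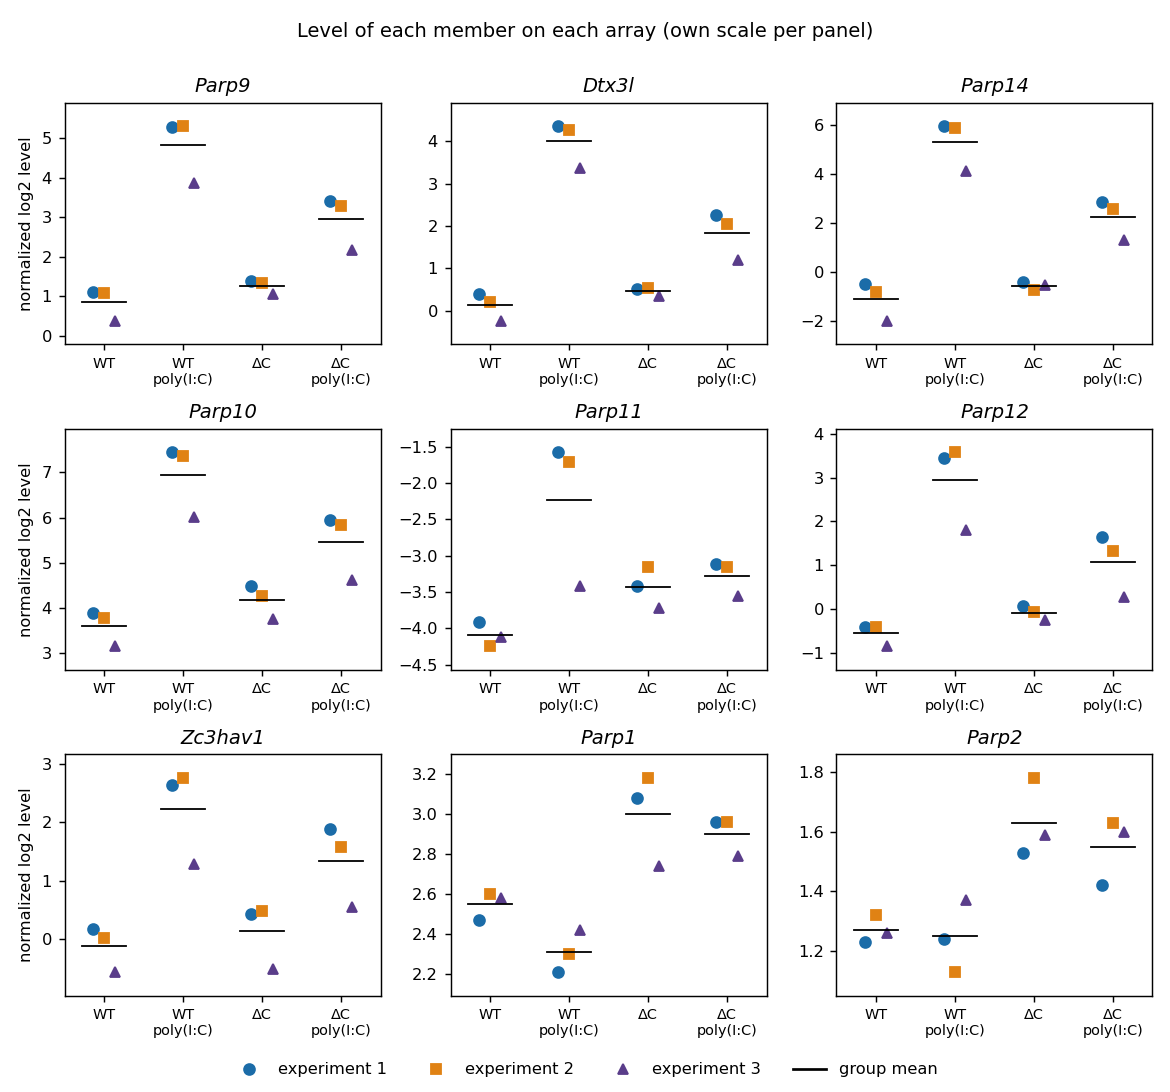
Normalized log2 level (y axis, own scale in each panel) of each gene on each of the 12 arrays, by group (x axis), with a symbol per experiment number and a bar at the group mean of 3 arrays. In the 7 interferon-linked genes the treated wild-type group stands highest, at means of 5.34 for Parp14 and -2.23 for Parp11, and experiment 3 is the lowest treated array of each genotype, while Parp1 and Parp2 show no such pattern.

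Since these genes rose together, their promoter windows were read from the RefSeq table (GRCm38.p6, 250 bases before to 50 after a start site). The table held 6 of the 9 genes, with 2 windows for Parp11. The core of the interferon-stimulated response element, a pair of GAAA repeats with any 2 bases between them, was searched on both strands. An exact match stood in the first Parp11 window and in none of its second window and those of Dtx3l, Parp12, Zc3hav1, Parp1 and Parp2, against 3.45% of all 32544 windows. With 1 mismatch allowed, matches also stood in the Dtx3l and Parp2 windows, against 35.5% of all windows. The gamma-activated site core, TTCNNNGAA, whose letters overlap the former in part, was found in the first Parp11 window, where it overlaps the exact match, against 8.33% of all windows. Parp11 is shown for its exact match (on the minus strand of the window) and Dtx3l for its match with 1 mismatch, each in capitals, and Parp12 as a window without either.
Parp11 (chr6:127446590-127446889, plus strand): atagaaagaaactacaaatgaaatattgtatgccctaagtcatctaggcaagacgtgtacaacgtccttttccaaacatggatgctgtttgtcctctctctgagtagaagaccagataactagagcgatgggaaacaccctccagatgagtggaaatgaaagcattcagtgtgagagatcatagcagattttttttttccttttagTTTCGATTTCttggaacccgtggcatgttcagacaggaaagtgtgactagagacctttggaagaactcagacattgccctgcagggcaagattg
Dtx3l (chr16:35938978-35939277, minus strand): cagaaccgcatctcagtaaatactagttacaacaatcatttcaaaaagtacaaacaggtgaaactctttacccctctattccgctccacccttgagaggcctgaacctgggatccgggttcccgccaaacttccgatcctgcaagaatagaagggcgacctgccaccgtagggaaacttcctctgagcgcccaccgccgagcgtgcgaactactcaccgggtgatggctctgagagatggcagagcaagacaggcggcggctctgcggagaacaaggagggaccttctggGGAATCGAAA
Parp12 (chr6:39118300-39118599, minus strand): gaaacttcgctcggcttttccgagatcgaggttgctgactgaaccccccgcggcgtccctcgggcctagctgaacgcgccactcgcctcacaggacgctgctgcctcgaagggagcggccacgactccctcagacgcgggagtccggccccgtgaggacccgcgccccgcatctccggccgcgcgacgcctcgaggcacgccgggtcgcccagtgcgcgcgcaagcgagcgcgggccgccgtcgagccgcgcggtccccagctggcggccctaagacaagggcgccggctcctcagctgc
The Parp11 match spans bases 207 to 216 of its window and the Dtx3l match bases 291 to 300. These matches are letters in a window and not measured sites.

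Lists of related genes were counted in the same comparison. Of 8 other PARP family members, 3 rose and 0 fell, with a median log2 difference of 0.15: Tiparp, a mono-ADP-ribosyltransferase gene of the aryl hydrocarbon response, rose by 1.82 ± 0.32, Parp8 by 1.38 ± 0.31 and Parp3 by 1.09 ± 0.26. Of 7 enzymes that remove ADP-ribose or read it, 0 rose and Macrod2, a macrodomain hydrolase gene, fell by 1.03 (SE 0.26, adjusted p = 0.0409), and the median was -0.33. Of 9 genes of NAD supply, 1 rose: Nampt, which makes the precursor of NAD in salvage, by 1.17 ± 0.27. Of 12 genes for cofactors of ZAP and RNA decay factors, 4 rose, led by Trim25 (2.79 ± 0.39), the ubiquitin ligase that ZAP depends on, and Dcp2 (1.91 ± 0.29), which removes the mRNA cap. N4bp1 and Rnf135 were the others. Of 6 tested consumers of NAD outside the family, 3 other deltex genes and 8 partners of Parp1 in DNA repair, limma called 0, and 1, 0 and 1 had an unadjusted p under 0.05. The share of all genes at that threshold was not counted. With the replicate number as a block, Tnks fell in addition, Xrn1 and Sirt1 rose, and Macrod2 was no longer called.

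The second comparison was the response of ΔC cells. There, Parp14 rose 7-fold, and the other 6 interferon-linked genes had differences above 0 that did not pass the test. The median log2 difference was 1.30 over the 7 and -0.05 over all genes, of which 1.82% rose and 0.0194% fell. For 6 of the 7, the treated arrays lay above the untreated ones, as for 8.79% of all genes. With the replicate number as a block, 5 of the 7 rose: Parp14, Parp9, Dtx3l, Parp10 and Zc3hav1, against 2% of all genes.

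Parp14 read -0.41, -0.72 and -0.51 on the untreated and 2.88, 2.58 and 1.32 on the treated ΔC arrays. Its log2 difference was 2.81 ± 0.56 (SE, n = 3 per group, adjusted p = 0.0324, and 0.00384 with the block). The call was lost without wild-type untreated 2 (adjusted p = 0.0532), without ΔC untreated 1, 2 or 3 (0.109, 0.142 and 0.0697), without ΔC poly(I:C) 1 or 2 (0.162 and 0.138), and in fits with a block for slide (0.288) or for scan day (0.112), and in the authors' table (0.573, or 0.164 less its column for ΔC poly(I:C) 1, which does not match that array).

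Parp9 read 1.38, 1.34 and 1.05 untreated and 3.41, 3.29 and 2.17 treated, a difference of 1.70 ± 0.43 (adjusted p = 0.102, and 0.00528 with the block). Its partner Dtx3l read 0.52, 0.54 and 0.34 untreated and 2.25, 2.04 and 1.19 treated, a difference of 1.36 ± 0.32 (adjusted p = 0.072, and 0.00488 with the block). The other probe of Dtx3l read -3.83, -4.13 and -4.91 untreated and -1.72, -2.60 and -3.36 treated. The groups did not overlap for either gene.

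Parp10 read 4.49, 4.27 and 3.76 untreated and 5.95, 5.84 and 4.62 treated, a difference of 1.30 ± 0.45 (adjusted p = 0.313, and 0.00833 with the block). Zc3hav1 read 0.43, 0.48 and -0.50 untreated and 1.89, 1.57 and 0.55 treated, a difference of 1.20 ± 0.47 (adjusted p = 0.395, and 0.00846 with the block). Their arrays numbered 3 were the lowest of each group, and the lowest treated value lay just above the highest untreated one.

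Parp12 read 0.06, -0.07 and -0.25 untreated and 1.65, 1.33 and 0.27 treated, a difference of 1.17 ± 0.46 (adjusted p = 0.41, and 0.12 with the block). Parp11 was the exception among the 7, since its groups overlapped, at -3.42, -3.15 and -3.72 untreated and -3.12, -3.16 and -3.55 treated. Its difference of 0.15 had a 95% interval of -0.76 to 1.06. The differences of Parp1 and Parp2 were -0.10 (interval -0.39 to 0.19) and -0.09 (-0.34 to 0.17).

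When the 4 arrays numbered 3 were left out, 6 interferon-linked genes rose in ΔC cells, Parp11 being the exception. Over all 15445 genes, 1007 then rose and 1022 fell, against 281 and 3 with all arrays. Of the fixed lists of related genes, limma called 0 members in ΔC cells. Among other PARP family members and ZAP cofactors, 2 and 2 had an unadjusted p under 0.05, and none of the other 5 lists had any. Here too the share of all genes at that threshold was not counted. With the block, Trim25 rose.

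**Figure D2:**
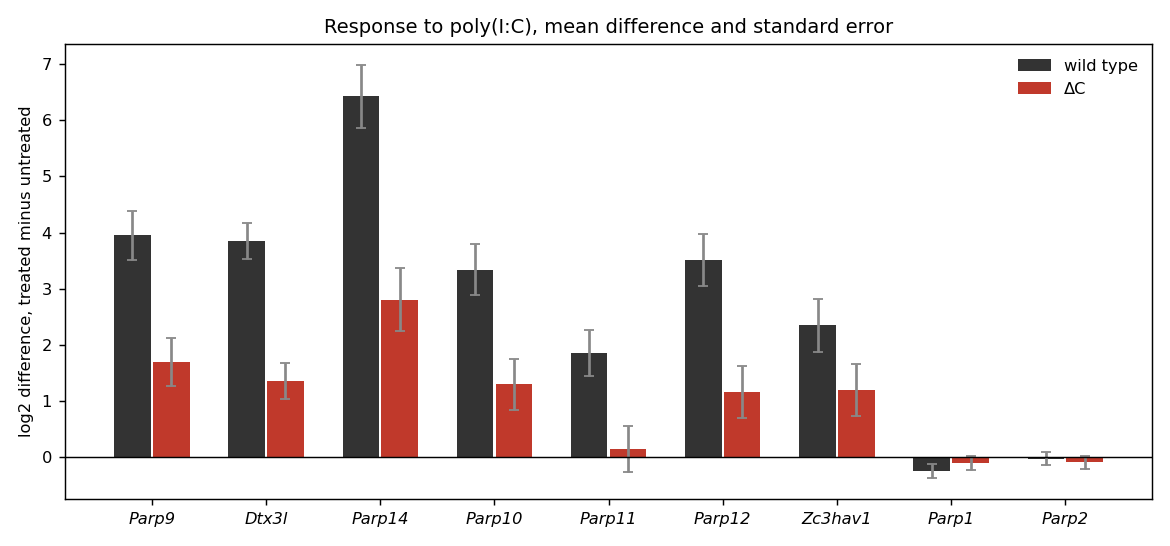
Mean log2 difference between treated and untreated arrays (y axis) for each gene, in wild-type and ΔC cells, with bars of 1 standard error from limma (3 arrays per group). The wild-type bar is higher than the ΔC bar in the 7 interferon-linked genes, 6.43 against 2.81 for Parp14 and 2.35 against 1.20 for Zc3hav1, and Parp1 and Parp2 stay near 0.

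The third comparison asked whether the response to poly(I:C) differed between the genotypes, as the ΔC difference minus the wild-type difference. The value was below 0 for all 7 interferon-linked genes, with a median of -2.25 against 0.07 over all genes. In limma without a block, 0 of the 9 passed, against 0.0129% of all genes lower and 0.00647% higher. These were 2 and 1 genes, or 9 and 1 with normexp and quantile normalization. Of the 9 genes, 6 had an unadjusted p under 0.05, and the share of all genes at that threshold was not counted. With the replicate number as a block, 4 passed, Dtx3l, Parp14, Parp9 and Parp10, against 0.24% of genes lower and 0.0259% higher. The comparison uses the same arrays as the 2 responses above.

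The difference of responses was -3.62 ± 0.79 for Parp14 (adjusted p = 0.296 without and 0.0296 with the block). The wild-type rise was thus 12.3 times the ΔC rise in fold. Taken within the experiments numbered 1 to 3, the value was -3.17, -3.39 and -4.30.

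For Dtx3l it was -2.50 ± 0.45 (adjusted p = 0.213 without and 0.0121 with the block), or -2.23, -2.53 and -2.74 by experiment. For Parp9 it was -2.25 ± 0.60 (0.446 without and 0.0358 with the block), or -2.13, -2.25 and -2.37 by experiment. For Parp10 it was -2.05 ± 0.63 (0.582 without and 0.0264 with the block), or -2.11, -2.02 and -2.01 by experiment. For Parp10 the block took the standard error from 0.63 to 0.25.

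Parp12 had a value of -2.34 ± 0.66 (adjusted p = 0.479 without and 0.0881 with the block), or -2.28, -2.60 and -2.16 by experiment. Parp11 had -1.71 ± 0.58 (0.65 without and 0.31 with the block), or -2.03, -2.56 and -0.53 by experiment, so that experiment 3 was apart. Zc3hav1 had the smallest of the 7, -1.14 ± 0.66 (0.987 without and 0.151 with the block), with a 95% interval of -2.61 to 0.32 without the block. The log2 response of ΔC cells was 33.3 to 51.2% of the wild-type response in 6 of the 7 genes and 8.17% in Parp11, as fitted values without an error.

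Parp1 and Parp2 had values of 0.14 (95% interval -0.27 to 0.55) and -0.06 (-0.42 to 0.30). Without wild-type poly(I:C) 3, Dtx3l, Parp11, Parp12, Parp14 and Parp9 passed without a block (adjusted p = 0.00388 to 0.0301). Over all genes, 10 were then higher and 200 lower, against 1 and 2 with all arrays. A block for slide or for scan day left 0 passing, and the 7 values were -3.29 to -1.23 under each.

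**Figure D3:**
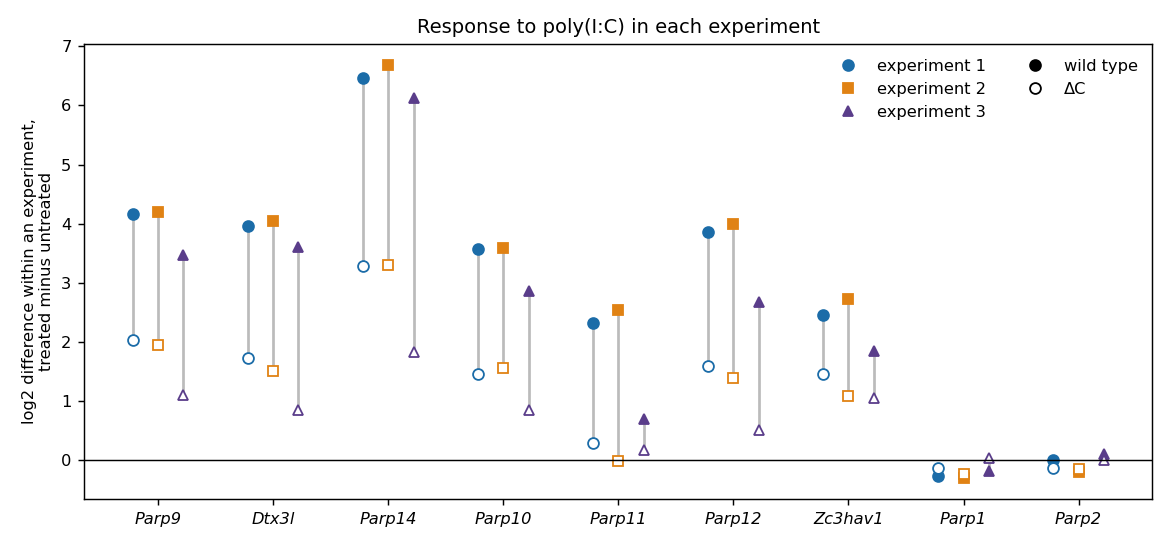
Log2 difference between the treated and the untreated array of the same experiment number (y axis) for each gene, in wild-type (filled) and ΔC cells (open), with a line joining the genotypes of an experiment. The wild-type value lies above the ΔC value in all 3 experiments for the 7 interferon-linked genes, by 2.01 to 2.11 for Parp10, and the experiments numbered 1 and 2 lie above experiment 3 in wild-type cells.

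The genotypes were then compared within each treatment. In untreated cells, Parp1 and Parp2 were higher in ΔC than in wild-type cells, and none of the 7 interferon-linked genes passed, while 10.9% of all genes were higher and 10.2% lower (1686 and 1581 genes, or 1264 and 696 with median scaling). The count of 2 in 9 stands beside 21.2% of all genes in either direction. Parp1 read 2.47, 2.60 and 2.58 in wild-type and 3.08, 3.18 and 2.74 in ΔC cells, a difference of 0.45 ± 0.13 (adjusted p = 0.0352). Parp2 read 1.23, 1.32 and 1.26 in wild-type and 1.53, 1.78 and 1.59 in ΔC cells, a difference of 0.36 ± 0.11 (adjusted p = 0.0467). The groups did not overlap for either gene.

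These small differences stood close to the threshold. The call on Parp1 was lost without any 1 of the wild-type untreated arrays, wild-type poly(I:C) 2 or ΔC untreated 1 or 2 (adjusted p = 0.0552 to 0.141), and that on Parp2 without any 1 array other than wild-type poly(I:C) 3 (0.0524 to 0.18). Both calls were lost with median scaling (adjusted p = 0.214 and 0.265), without the filter, in a fit of the compared groups alone, with a block for slide or for scan day, and in the authors' table. The 7 interferon-linked genes had differences of 0.25 (Zc3hav1) to 0.66 (Parp11), a median of 0.47 against -0.06 over all genes. The other probe of Dtx3l differed by 0.03 ± 0.54, against 0.34 ± 0.32 for the probe used. Of the 7 genes, Parp10 passed with the block (0.57, adjusted p = 0.0475), as did 13.4% of all genes as higher and 14% as lower, and Parp11 and Parp12 had groups that did not overlap, as had 17.6% of all genes in that direction.

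After poly(I:C), 5 of the 7 interferon-linked genes were lower in ΔC than in wild-type cells, Dtx3l, Parp14, Parp9, Parp12 and Parp10, while 9.04% of all genes were lower and 11.9% higher (1396 and 1837 genes, or 1179 and 999 with median scaling). The median difference was -1.86 over the 7 and 0.01 over all genes. Median scaling moved the median of all genes to -0.14 here, to -0.19 in the ΔC response and to -0.14 in the difference of responses. The treated ΔC arrays lay below the treated wild-type arrays in the same 5 genes, as for 18.9% of all genes. With the replicate number as a block, Zc3hav1 was lower in addition, against 11.6% of all genes lower and 14.2% higher.

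Dtx3l showed the smallest adjusted p of the 9: its levels of 4.35, 4.25 and 3.36 in treated wild-type cells stood against 2.25, 2.04 and 1.19 in treated ΔC cells. It was 4.47-fold lower (log2 difference -2.16 ± 0.32, adjusted p = 0.00134), and kept its call under all 26 alternatives tried. Parp14, at 5.97, 5.88 and 4.16 against 2.88, 2.58 and 1.32, was 8.42-fold lower (-3.07 ± 0.56, adjusted p = 0.00417, and 0.0543 with slide as a block). Parp9, at 5.28, 5.30 and 3.87 against 3.41, 3.29 and 2.17, was 3.63-fold lower (-1.86 ± 0.43, adjusted p = 0.0127).

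Parp12, at 3.46, 3.59 and 1.81 against 1.65, 1.33 and 0.27, was 3.66-fold lower (-1.87 ± 0.46, adjusted p = 0.0178). The calls on Parp9 and Parp12 were lost without wild-type poly(I:C) 1 (adjusted p = 0.0578 and 0.0757) or 2 (0.0574 and 0.0762) and in a fit of the compared groups alone (0.0581 and 0.0794), and that on Parp12 with a block for slide (0.0651). Parp10, at 7.45, 7.37 and 6.02 against 5.95, 5.84 and 4.62, was 2.78-fold lower (-1.48 ± 0.45, adjusted p = 0.0412). That call was lost under 18 of 26 alternatives, among them the loss of any 1 array other than wild-type untreated 3, wild-type poly(I:C) 3 or ΔC untreated 3 (0.0517 to 0.15), and its adjusted p was 0.000925 with the replicate number as a block.

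Zc3hav1, at 2.64, 2.76 and 1.29 against 1.89, 1.57 and 0.55, overlapped between genotypes and differed by -0.89 ± 0.47 (adjusted p = 0.211, and 0.00663 with the block, where it passed). Parp11, at -1.57, -1.71 and -3.42 against -3.12, -3.16 and -3.55, differed by -1.04 ± 0.41 (adjusted p = 0.0981, 0.0505 with the block and 5e-04 without wild-type poly(I:C) 3, the low array of its group). Parp1 was higher in treated ΔC cells by 0.59 ± 0.13 (adjusted p = 0.0108), at 2.21, 2.30 and 2.42 against 2.96, 2.96 and 2.79. That call was lost without wild-type poly(I:C) 1 (0.0518), under median scaling (0.262) and with a block for slide (0.132) or for scan day (0.058). Parp2 differed by 0.30 ± 0.11 (adjusted p = 0.0894), at 1.24, 1.13 and 1.37 against 1.42, 1.63 and 1.60.

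**Figure D4:**
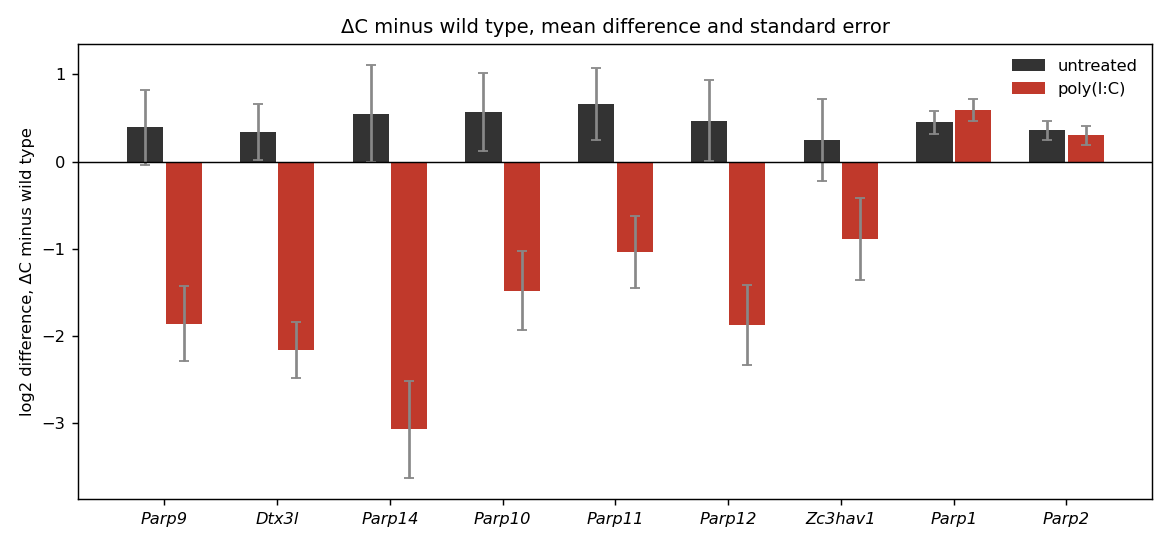
Mean log2 difference between ΔC and wild-type arrays (y axis) for each gene, untreated and after poly(I:C), with bars of 1 standard error from limma (3 arrays per group). The 7 interferon-linked genes lie between 0.25 and 0.66 untreated and between -3.07 and -0.89 after poly(I:C), while Parp1 and Parp2 lie above 0 in both.

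Slides and scan days were shared between groups in part. Within the slide and within the scan day that held both groups of a comparison, the 7 interferon-linked genes kept the sign given above in each of the 4 comparisons. Within a slide this set 1 array against 1, and within a scan day 1 against 2. The slide differences are those of experiment 1 or 2 again. No array numbered 3 entered either, so that these values are no separate check. The differences of the 7 genes were 2.54 to 6.69 (slide) and 2.61 to 6.73 (scan day) in the wild-type response, 0.30 to 3.29 and 0.17 to 3.45 in the ΔC response, 0.09 to 1.10 and 0.25 to 0.97 between untreated genotypes and -3.08 to -0.74 and -3.04 to -0.80 between treated ones. With slide as a block they were 2.18 to 6.02, -0.27 to 2.73, 0.12 to 0.98 and -3.15 to -1.09, and with scan day 2.23 to 6.26, -0.22 to 2.97, 0.27 to 1.03 and -2.91 to -0.93, Parp11 being the gene below 0 in the ΔC response.

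Among related genes, the same comparison after poly(I:C) gave lower values in ΔC cells for 3 of 12 ZAP cofactors (Dcp2, -1.54 ± 0.29, Trim25, -1.47 ± 0.39, and N4bp1), and for 5 with the block, Rnf135 and Xrn1 in addition. Of 8 other PARP family members, Tiparp was lower (-1.35 ± 0.32). Of 9 genes of NAD supply, Nampt was lower (-1.30 ± 0.27) and 3 were higher: Nmrk1 (1.03 ± 0.23), Nmnat3 and Nmnat2, the gene of an enzyme that makes NAD from its mononucleotide, which was not well above background on any wild-type array and was tested through the ΔC arrays. Nmnat2 was at least 2.216-fold higher. Its adjusted p of 0.00496 was limma's for the signals as read and is no test of this bound. Of 7 enzymes that remove or read ADP-ribose, Macrod2 (1.74 ± 0.26) and Macrod1 (1.10 ± 0.22) were higher. These 2 and Nmnat3 were also higher in untreated ΔC cells, as was Nmnat2, by at least 1.712-fold (adjusted p = 0.000495 for the signals as read, not for the bound). Polb, the repair polymerase gene, was higher with and without treatment, and Aplf without. Of the other lists, Sirt2 was higher with and without treatment, and Sirt7 and Dtx4 were lower in untreated ΔC cells (Dtx4 and Sirt7 also after treatment with the block). In untreated cells the block added Parp8 and Xrn1 as higher and Adprhl1, Nampt and Nadsyn1 as lower in ΔC cells.

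Across the 12 arrays, which share their groups and experiments, the levels of the 6 interferon-linked genes other than Parp11 correlated with each other at Pearson r of 0.94 to 1.00 (15 pairs), and those of Parp11 with them at 0.86 to 0.92. Parp1 and Parp2 correlated with the 7 at -0.54 to -0.26. On the treated arrays numbered 3, all 7 genes were the lowest of their group in wild-type and in ΔC cells, by a mean of 0.99 and 0.73 below the group mean in log2. The interferon beta gene Ifnb1 read 6.78, 6.58 and 5.58 on the treated wild-type arrays and 5.18, 4.99 and 5.28 on the treated ΔC arrays, so that on the ΔC array numbered 3, where the 7 genes were lowest, Ifnb1 was highest of its group. Between the treated genotypes Ifnb1 differed by -1.17 ± 0.67, which did not pass (adjusted p = 0.251). The transcription factor gene Irf7 read 3.89, 4.11 and 2.02 on the treated wild-type and 2.16, 1.80 and -0.49 on the treated ΔC arrays, with array 3 the lowest in each, as in the 7.

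The 5 genes with the levels most like the mean of the standardized levels of the 7, by Pearson r over the 12 arrays, were Trim56 (0.9917), Igtp (0.9904), Herc6 (0.9896), Tent5a (0.9883) and Ifit1bl1 (0.9859). Of the 7 genes, Parp12 (0.997) and Parp10 (0.996) lay closest to that mean and Parp11 (0.922) farthest.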

How the data were processed

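The software was Feature Extraction 10.7.3.1, per the file headers, and the deposited files give spot intensity, background-subtracted, spatially detrended and not normalized between arrays. A second file deposited by the authors holds log2 values, with a median of 5.28 in each of 12 columns. The submitters' processing notes name limma, and its version and steps are not given in the sources used here. The table's column for ΔC poly(I:C) 1 correlated at 0.949 with its scanner file (-0.06 after centring each probe) and best with that of wild-type untreated 1, while the other 11 matched their own files at over 0.99. Values from the whole table for treated ΔC cells therefore include a column that may not hold that sample.

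From the scanner files, log2 intensity was averaged over spots of a probe without control and outlier spots (91 to 163 per array, 0 saturated), and the 75th percentile over 55681 probes was subtracted. RefSeq accessions (GRCm38.p6 table) named 27235 probes. Genes with a probe well above background on all 3 arrays of a group were tested by limma 3.58.1 in R 4.3.3 (12 arrays, a mean for each group, 8 residual and 2.19 prior degrees of freedom, two-sided, Benjamini-Hochberg over 15445 genes), with their brightest probe, after a check on simulated data. Precision rests on how many arrays each group has and on each gene's spread between arrays, since intensities carry no counts. Probe positions and proteins were not used here.

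Named are the 9 genes, the targeted gene, Ifnb1 and Irf7, the 5 most alike genes and, of 7 lists of related genes, the largest called changes. Genes, lists and tests were chosen with earlier results of these data known. Same-numbered arrays deviated together (r of 0.115 to 0.651 across genes in compared groups) and come from experiments that share a number in the labels, so that fits with the number as a block are given where they change a call. Other alternatives concerned normalization, background correction, filter, probes, batches, weights, prior, the authors' table and arrays left out.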

Additional observations from a re-analysis of the deposited data

How the results depend on the processing

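The counts below are of the 9 genes called. In the ΔC response 1 was called, against 6 with array weights or without the arrays numbered 3, 5 with the replicate block, 2 with trend and robust, and 0 with a block for slide or for scan day and in the authors' table, whole or less its mismatched column (the latter chosen after seeing the data). Between untreated genotypes 2 were called, against 0 with median scaling, no filter, the compared groups alone, a block for slide or for scan day, and the authors' table. Between treated genotypes 6 were called, against 3 with the compared groups alone and 2 with a block for slide. For the difference of responses 0 were called, against 6 with array weights, 7 without the arrays numbered 3 and 4 with the replicate number as a block. Leaving out 1 array at a time gave 5 to 7 in the wild-type response (7 with all arrays), 0 to 3 in the ΔC response, 0 to 3 and 2 to 8 between untreated and treated genotypes, and 0 to 5 for the difference. The calls among all genes moved as well, with 372 to 1193 higher and 2 to 1138 lower in the wild-type response. They were 154 to 345 and 0 to 32 in the ΔC response. Between genotypes they were 1014 to 1912 and 762 to 1906 untreated, and 1050 to 2003 and 696 to 1541 treated. For the difference of responses they were 0 to 10 and 0 to 200. Over all genes, the rises in wild-type cells were 222 with slide as a block and 2482 with array weights (809 without), those in ΔC cells 0 in the authors' table and 1256 with array weights (281 without), and the genes higher in ΔC cells 549 and 3545 untreated (1686) and 288 and 3786 treated (1837), with the lower value in the authors' table after treatment. For the difference of responses, 196 of all genes were higher and 498 lower with array weights. Without the arrays numbered 3 these counts were 94 and 360, against 1 and 2 with neither change.

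Of 1161 values of single genes under an alternative, 1150 kept their direction, 82 lost a call and 56 gained one. Those that turned were near 0. The ΔC response of Parp11 (0.15) was -0.27 with a block for slide, -0.22 with one for scan day and -0.35 in the authors' table. The wild-type response of Parp2 (-0.02) was 0.05 with median scaling, 0.01 with slide as a block and -0.09 to 0.04 without 1 array at a time, at 0.00 and 0.04 without array 2 of either wild-type group. The difference of responses was -0.07 for Parp1 with median scaling (0.14), and for Parp2 (-0.06) it was 0.00 in the authors' table less that column and -0.12 to 0.01 without 1 array at a time, at 0.01 and 0.00 without ΔC untreated 2 and ΔC poly(I:C) 1. The cause was not tested. The replicate block changed no call of the 9 genes other than those given with their results.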
